A study of Mus musculus with 23 samples.

Results

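The 40 genes described here are crypt proliferation and cell cycle genes, with Mki67 and Top2a as their markers, of 19215 entries in the table of small intestine expression. They were chosen by symbol for their known roles, through the NCBI Gene number of each entry, by a rule that uses no measured value but was written with earlier results of these data known. All 40 were found, and all 40 were among the 11337 genes that averaged 1 FPKM or more (fragments per kilobase of transcript and library size) and were tested. Small intestine RNA of male ICR mice was measured in 23 libraries. Each library is treated here as a separate mouse, which neither the sample titles nor the paper's methods state. Every mouse, those of the control group included, had received a single injection of busulfan, an alkylating agent that damages dividing cells, so these libraries hold no busulfan-free group. From the next day the mice were gavaged with saline (Sa) or received faecal microbiota transplantation (FMT) from donor mice. The donors had been dosed with vehicle (Con-FMT), with alginate oligosaccharides (AOS) at 10 mg/kg (A10-FMT) or with AOS at 100 mg/kg (A100-FMT), and the luminal content of a donor group was pooled, so that the recipients of a group shared 1 inoculum. Each treatment is present in 2 sets of libraries that are told apart by a code in the sample names, called set 1 and set 2 here. The labels give neither the meaning of the sets nor the age at sampling. Sa of set 1 held 2 mice and each of the other groups 3, which makes 8 groups.

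The small intestinal epithelium renews itself from crypts, where stem cells and their transit-amplifying daughters divide before the daughters move onto the villus and stop cycling. In a dividing cell, D-type and E-type cyclins release the E2F factors, which switch on genes for origin licensing, the replication fork and deoxynucleotide synthesis in S phase. B-type cyclins, the mitotic kinases and the factors FoxM1 and B-Myb then drive the genes of mitosis, and the anaphase-promoting complex ends the cycle by marking cyclins and other proteins for degradation. In tissue RNA the level of these genes depends on how many cells are cycling and on how much RNA each of them holds. Fewer cells of a type and less RNA per cell cannot be told apart in these libraries.

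The sequencing depth of the libraries is unknown, since the table gives no read numbers, and their FPKM values summed to between 556466 and 667957. The RNA had epithelial identity: the villus genes Apoa1 and Anpep averaged 2340 and 1570 FPKM, the crypt base stem cell genes Olfm4 and Slc12a2 averaged 416 and 50.4 FPKM, and the Paneth cell genes Defa24 and Defa17 averaged 5230 and 3270 FPKM. Markers of other cell types were low. Of the listed genes with values, only 2 of 12 B cell, 3 of 9 T cell and 1 of 5 plasma cell genes averaged 1 FPKM. The same held for 1 of 7 smooth muscle genes and 1 of 6 erythroid genes. Their most abundant members were Bcl6 at 2.94, Cd3g at 4.09, Sdc1 at 44.3 (also an epithelial gene), Tagln at 1.24 and Hba-a1 at 5.02 FPKM. One library stood apart. In replicate 3 of Sa set 1 the deviation of a gene from its median over the libraries followed the GC content of its transcript. Spearman's rho was 0.69 across 10527 genes, against -0.221 to 0.22 in the other 22 libraries. Results that rest on Sa set 1 are therefore given with and without this library. Leaving it out also changes the spread shared by all groups. Counts of calls without it, or under another scaling, are given without the share of all genes called in that fit. Whether the replicates came from separate litters or cages is not stated, and p-values measure the spread between these libraries.

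The members were well expressed and spanned a wide range of levels. Pcna, the sliding clamp of the replication fork, was the most abundant with a mean of 156 FPKM over the 23 libraries, closely followed by Ube2c, the ubiquitin-conjugating enzyme of the anaphase-promoting complex, with 154 FPKM. Birc5 (survivin, of the chromosomal passenger complex) averaged 81.3 FPKM, Ccnd1 (cyclin D1) 77.8 FPKM, Top2a (topoisomerase II alpha, which untangles replicated chromosomes) 62.2 FPKM, Ccna2 (cyclin A2) 50.7 FPKM, Mki67 (the Ki-67 antigen of cycling cells) 36.7 FPKM and Tk1 (thymidine kinase) 35.2 FPKM. These 8 genes lead their role groups or are the 2 markers.

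The promoters of cell cycle genes carry short motifs, and a few promoters of members are printed here. Whether a motif goes with the change of a member was not tested. Promoter windows of 300 bases, from 250 before to 50 after the start of the transcript, were matched in RefSeq (GRCm38.p6) for 32 of the 40 members. Ccnd1, Ccne2, Mcm4, Ccna2, Aurkb, Foxm1, Kif20a and Tpx2 were not matched. The letters CCAAT of the NF-Y box and the letters TTTGAA of the cell cycle homology region (CHR) were searched on both strands. An E2F sequence was counted where the window held TTCCCGC or TTCGCGC or TTGCCGC or TTGGCGC, also on both strands. The NF-Y letters were present in 76.5% of the 34 windows of members, against 37.4% of all 32851 windows of the table. TTTGAA was present in 44.1% of the members' windows, against 17.9%, and an E2F sequence in 35.3%, against 9.57%. In the 16 windows of the mitotic role groups TTTGAA was found in 68.8% and an E2F sequence in 12.5%. In the 14 windows of replication and deoxynucleotide genes the shares were 14.3% and 64.3%. The NF-Y letters were common in both, at 87.5% of the mitotic and 71.4% of the replication and deoxynucleotide windows. A match is a description of letters in this window. The sequences below are 200 bases of the GRCm38.p6 assembly each, read 5′ to 3′ on the strand of the gene, with matches on either strand in capitals. Pcna (chr2:132253181-132253380, minus strand), Ccnb2 (chr9:70421555-70421754, minus), Birc5 (chr11:117849037-117849236, plus) and Ube2c (chr2:164769729-164769928, plus) are the most abundant matched members of 4 of the role groups. Mcm6 (chr1:128359706-128359905, minus) and Top2a (chr11:99024190-99024389, minus) were added after the motifs had been seen, as a replication gene with E2F sequences and as a marker.
Pcna: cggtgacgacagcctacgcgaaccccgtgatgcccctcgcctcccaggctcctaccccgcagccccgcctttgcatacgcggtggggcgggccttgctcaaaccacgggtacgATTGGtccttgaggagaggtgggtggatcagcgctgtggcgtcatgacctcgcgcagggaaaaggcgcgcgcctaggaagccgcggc
Ccnb2: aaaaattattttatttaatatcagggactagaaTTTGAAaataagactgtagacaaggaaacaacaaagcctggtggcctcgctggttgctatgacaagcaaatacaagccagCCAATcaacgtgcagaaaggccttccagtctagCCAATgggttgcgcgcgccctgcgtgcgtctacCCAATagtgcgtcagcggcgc
Birc5: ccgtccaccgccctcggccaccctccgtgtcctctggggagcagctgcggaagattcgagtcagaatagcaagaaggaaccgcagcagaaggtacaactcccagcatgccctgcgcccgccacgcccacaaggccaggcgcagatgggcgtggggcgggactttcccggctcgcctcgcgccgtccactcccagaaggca
Ube2c: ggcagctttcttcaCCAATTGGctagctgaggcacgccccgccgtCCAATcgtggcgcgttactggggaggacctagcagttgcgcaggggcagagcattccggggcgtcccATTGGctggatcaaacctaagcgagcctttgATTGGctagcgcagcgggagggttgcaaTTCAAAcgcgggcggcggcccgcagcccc
Mcm6: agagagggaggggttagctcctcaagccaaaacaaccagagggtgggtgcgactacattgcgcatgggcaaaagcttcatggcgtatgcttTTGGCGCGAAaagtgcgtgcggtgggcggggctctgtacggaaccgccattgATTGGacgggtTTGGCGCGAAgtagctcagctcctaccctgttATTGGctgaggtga
Top2a: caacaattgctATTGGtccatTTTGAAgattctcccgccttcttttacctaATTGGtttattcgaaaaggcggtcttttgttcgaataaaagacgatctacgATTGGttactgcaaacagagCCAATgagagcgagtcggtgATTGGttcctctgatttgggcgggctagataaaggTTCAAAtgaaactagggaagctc
The stretch of Pcna held 1 CCAAT match on the reverse strand. That of Ccnb2, the gene of cyclin B2, held 3 CCAAT matches and 1 TTTGAA, and that of Ube2c held 5 CCAAT matches, a pair of which overlap on opposite strands, and 1 TTTGAA. The stretch of Mcm6, a subunit of the replicative helicase, held 2 CCAAT matches and 4 E2F matches. The E2F matches lie in separate pairs, each of overlapping matches on opposite strands. The stretch of Top2a held 5 CCAAT and 2 TTTGAA matches, and that of Birc5 held none of the 3 motifs.

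Most of the 40 genes were lowest in the A10-FMT mice of set 1. This group had the lowest mean FPKM of the 8 groups for 34 of the 40 members, and the lowest of the remaining 7 groups for 39 when Sa set 1 was left aside, the exception being Ccne1 (cyclin E1), which was lowest in A100-FMT set 1. The highest mean lay in Sa set 1 for 18 members, in A10-FMT set 2 for 14, in A100-FMT set 2 for 5, in Con-FMT set 1 for 2 and in A100-FMT set 1 for 1. Without Sa set 1 it lay in A10-FMT set 2 for 25 and in A100-FMT set 2 for 11. The summed FPKM of the members was 1154 to 1222 in the 3 mice of A10-FMT set 1 and 1537 to 1651 in the 3 mice of A10-FMT set 2. The other groups lay between 1317 and 1648, so A10-FMT set 1 did not overlap with any other group in this sum.

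**Figure D1:**
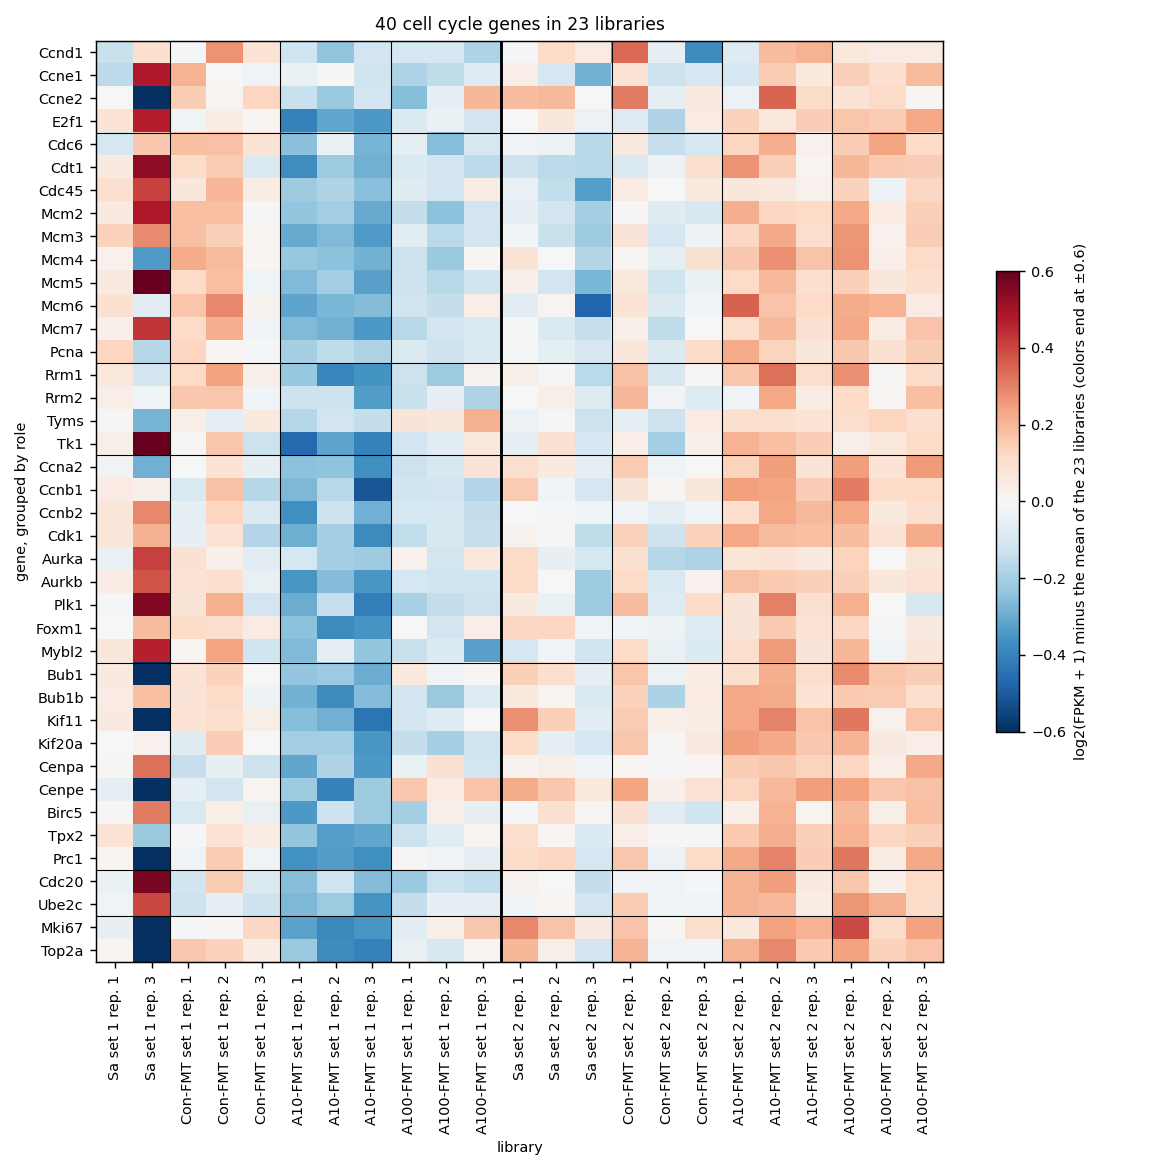
Heat map of the 40 members (rows, ordered by role) in the 23 libraries (columns, ordered by group). Colour is log2(FPKM + 1) minus the gene's mean over the 23 libraries, and colours end at 0.6 in either direction. The 3 columns of A10-FMT set 1 are below the mean in most rows, and replicate 3 of Sa set 1 holds both the lowest and the highest values of many rows.

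Mki67 was at 28.52, 27.2 and 28.02 FPKM in the A10-FMT mice of set 1 and at 35.64, 36.14 and 39.27 FPKM in the Con-FMT mice of set 1. It was at 34.25, 36.85 and 40.28 FPKM in A100-FMT set 1, and at 34.63 and 15.0 FPKM in the 2 Sa mice of set 1. The lowest value of the gene was thus not in an A10-FMT mouse but in replicate 3 of Sa, the library whose values followed GC content. In set 2 it was at 44.09, 40.54 and 37.29 FPKM in Sa and at 40.51, 36.15 and 38.78 FPKM in Con-FMT. In A10-FMT set 2 it was at 37.59, 42.61 and 41.73 FPKM, and in A100-FMT set 2 at 47.62, 38.95 and 42.62 FPKM. The 4 groups of set 2 overlapped with each other, and every A10-FMT mouse of set 1 was below every mouse of set 2.

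Top2a was likewise lowest in A10-FMT of set 1, apart from the same Sa library. It was at 52.47, 47.16 and 46.17 FPKM in A10-FMT set 1, against 68.93, 67.67 and 63.53 FPKM in Con-FMT set 1 and 59.54, 57.37 and 62.02 FPKM in A100-FMT set 1. The Sa mice of set 1 were at 61.91 and 37.1 FPKM. The 3 treatments by FMT did not overlap in set 1, with Con-FMT highest and A10-FMT lowest. In set 2 the gene was at 70.77, 62.98 and 56.67 FPKM in Sa and at 70.9, 60.77 and 60.75 FPKM in Con-FMT. It was at 71.2, 75.22 and 68.6 FPKM in A10-FMT and at 72.86, 67.86 and 69.27 FPKM in A100-FMT of set 2, where the 4 groups overlapped.

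**Figure D2:**
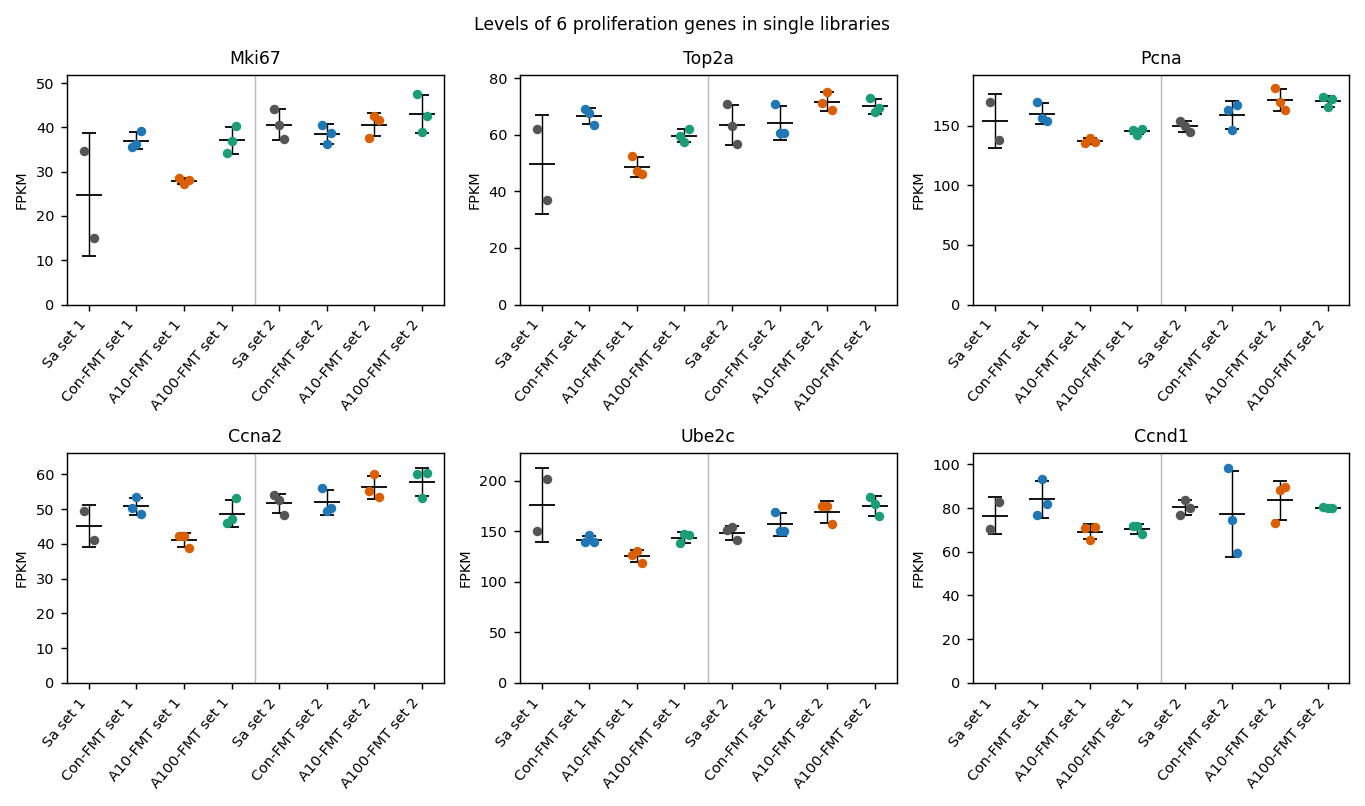
FPKM (vertical axes, starting at 0) of Mki67, Top2a, Pcna, Ccna2, Ube2c and Ccnd1 in the 8 groups. Points are libraries and bars are the mean ± SD (n = 3, and n = 2 for Sa set 1). In A10-FMT set 1 Mki67 lay between 27.2 and 28.52 and Top2a between 46.17 and 52.47, below every other library except replicate 3 of Sa set 1.

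The comparison of A10-FMT with Con-FMT sets recipients of the pool from donors on AOS at 10 mg/kg against recipients of the vehicle pool. The AOS dosing and any other difference between the pools cannot be told apart. In set 1, 25 of the 40 members fell and none rose (limma on log2(FPKM + 1), Benjamini-Hochberg adjusted p under 0.05), where 11.5% of all genes tested fell. All 40 were lower in A10-FMT, by 0.11 to 0.46 on the log2 scale, and 35 of them at an unadjusted p under 0.05, against 22.5% of all genes. The median difference was -0.33 for the members and -0.08 for all genes tested. For 37 members every A10-FMT mouse was below every Con-FMT mouse, which was so for 29.8% of all genes.

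All 10 members for origin licensing and the replication fork fell: Cdc6 and Cdt1, which load the helicase, Cdc45, which activates it, the helicase subunits Mcm2 to Mcm7 and Pcna. Mcm3 was at 20.81, 21.42 and 20.26 FPKM in A10-FMT and at 29.55, 28.72 and 26.17 FPKM in Con-FMT, a difference of -0.42 ± 0.07 (log2, SE; adjusted p = 0.00134). Mcm6 averaged 37.5 ± 0.784 FPKM against 51.5 ± 4.86 FPKM (SD, n = 3 each). Pcna was at 135.15, 139.57 and 136.4 FPKM in A10-FMT and at 169.91, 156.6 and 154.0 FPKM in Con-FMT, a smaller difference of -0.22 ± 0.07 (adjusted p = 0.0326). Mcm3 and Pcna did not overlap between the groups.

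Of the 4 genes of deoxynucleotide supply, Rrm1 and Rrm2, the subunits of ribonucleotide reductase, and Tk1 fell. Rrm1 had the largest difference of all members. It was at 23.98, 21.28 and 21.85 FPKM in A10-FMT and at 30.83, 33.57 and 28.98 FPKM in Con-FMT (log2 difference -0.46 ± 0.09, adjusted p = 0.00357). Tk1 was at 24.93, 27.78 and 25.99 FPKM against 34.92, 39.2 and 31.68 FPKM (-0.41 ± 0.12, adjusted p = 0.0229). Tyms, thymidylate synthase, was not called: its means were 13.6 and 15.3 FPKM, and the adjusted p was 0.117.

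At the entry into S phase, 1 of 4 members fell. E2f1, an activator of S phase genes, was at 3.47, 3.77 and 3.67 FPKM in A10-FMT and at 4.82, 5.11 and 4.98 FPKM in Con-FMT (-0.36 ± 0.08, adjusted p = 0.00567). The cyclins Ccnd1, Ccne1 and Ccne2 did not pass the test. Ccnd1, the most abundant of them, was at 70.98, 65.43 and 71.2 FPKM in A10-FMT and at 76.98, 93.44 and 81.9 FPKM in Con-FMT (-0.27 ± 0.13, adjusted p = 0.142), and these values did not overlap either. Ccne1 had the smallest difference of the 40, -0.11 ± 0.12 (adjusted p = 0.562).

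Of the 9 mitotic cyclins, kinases and transcription factors 6 fell: Ccna2, Ccnb1, Ccnb2, Cdk1 (the kinase these cyclins activate), Aurkb and Foxm1. Foxm1, a factor that activates G2 and M phase genes, had the smallest p of all members. It was at 10.37, 9.35 and 9.55 FPKM in A10-FMT and at 13.58, 13.49 and 12.94 FPKM in Con-FMT (-0.42 ± 0.06, adjusted p = 0.000931). Ccna2 was at 42.24, 42.42 and 38.74 FPKM against 50.33, 53.4 and 48.63 FPKM (-0.30 ± 0.08, adjusted p = 0.0171). The kinase genes Plk1 and Aurka and the gene of B-Myb, Mybl2, did not pass, with adjusted p of 0.0749, 0.189 and 0.153.

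Of 9 genes of the spindle, kinetochore and cytokinesis 4 fell, namely Bub1b (a spindle checkpoint kinase), Kif20a (a kinesin of the central spindle), Tpx2 (a spindle assembly factor) and Prc1 (which bundles microtubules at the midzone). Tpx2 was at 16.62, 15.43 and 15.65 FPKM in A10-FMT and at 19.59, 20.97 and 20.28 FPKM in Con-FMT (-0.33 ± 0.07, adjusted p = 0.00365). Bub1, Kif11, Cenpa, Cenpe and Birc5 did not pass. Birc5 was at 63.5, 74.11 and 69.33 FPKM against 75.89, 83.27 and 78.44 FPKM (-0.20 ± 0.09, adjusted p = 0.124). Neither of the partners of the anaphase-promoting complex passed. Which members of a role group passed depended on the fit, as given below. Ube2c was at 126.59, 131.0 and 119.16 FPKM in A10-FMT and at 139.76, 146.34 and 139.79 FPKM in Con-FMT (-0.18 ± 0.08, adjusted p = 0.157), without overlap, and Cdc20, an activator of the complex, averaged 60.0 ± 3.42 and 68.9 ± 7.36 FPKM (SD, n = 3 each).

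Of the 2 markers, Top2a passed the test and Mki67 did not. Top2a fell by 0.45 ± 0.13 on the log2 scale (adjusted p = 0.0201). Mki67 averaged 27.9 ± 0.666 FPKM in A10-FMT and 37.0 ± 1.97 FPKM in Con-FMT (SD, n = 3 each), a difference of -0.39 ± 0.18 that did not pass (adjusted p = 0.133). The SE comes from the spread of all 8 groups. Without replicate 3 of Sa set 1 it was 0.08. In that fit the median difference stayed at -0.33 for the members and -0.08 for all genes. The description of that saline library names another column, and with that column Mki67 passed as well. Adjusted for GC content and length, Mki67 did not pass.

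The number of calls in this comparison depended on the scaling and on the libraries and columns that entered the fit. A10-FMT set 1 had the lowest scaling factors from a trimmed mean beside replicate 3 of Sa set 1, 0.942 to 0.952. With this scaling the median of all genes moved from -0.08 to about 0, that of the members from -0.33 to -0.25, and 11 members were called: E2f1, Mcm3, Mcm4, Mcm6, Mcm7, Rrm1, Aurkb, Foxm1, Bub1b, Tpx2 and Top2a. Leaving out Con-FMT replicate 1, Con-FMT replicate 2 or A10-FMT replicate 3 left 14, 12 and 11 calls. With the column that the description names for replicate 3 of Sa set 1, 33 members were called. Those not called were Ccnd1, Ccne1, Ccne2, Aurka, Mybl2, Birc5 and Ube2c. Adjusted for GC content and length, 26 were called. Cdc20, Ube2c, Bub1, Kif11 and Plk1 were then among them, and Cdc6, Ccnb1, Cdk1 and Kif20a were not. The calls by role given above are those of the main fit.

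Other genes of the cell cycle, listed by their known roles, moved in the same direction. Of 122 tested, 53 fell and 2 rose in A10-FMT of set 1, where 11.5% of all genes fell and 5.2% rose. By list, 21 of 40 S phase genes, 25 of 59 genes of mitosis and 5 of 17 of the G1 machinery fell. Among the inhibitors 2 went in each direction. Incenp, the scaffold of the chromosomal passenger complex, fell from 24.9 to 18.2 FPKM (-0.43, adjusted p = 0.000378), E2f8, an atypical E2F, from 18.4 to 12.2 FPKM (-0.56, adjusted p = 0.000503) and Dnmt1, the maintenance DNA methyltransferase, from 26.0 to 19.0 FPKM (-0.43, adjusted p = 0.00113). Among the inhibitors of cyclin-dependent kinases Cdkn1c (p57) rose from 2.25 to 4.0 FPKM (0.62, adjusted p = 0.00359) and Cdkn2b (p15) from 90.1 to 105 FPKM (0.21, adjusted p = 0.00935), while Cdkn1b (p27) fell from 19.9 to 15.0 FPKM (-0.39, adjusted p = 0.00748) and Cdkn2c (p18) fell by 0.38 on the log2 scale (adjusted p = 0.0156).

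Lists of other epithelial cell types differed in direction. In A10-FMT of set 1, 10 of 15 villus enterocyte genes rose against Con-FMT and none fell (median difference 0.46), where 5.2% of all genes rose. Of 8 crypt base stem cell genes 5 fell (median -0.38), where 11.5% of all genes fell, while none of 6 Paneth cell genes was called. The summed FPKM of the villus genes was 13600 to 16600 in A10-FMT set 1 and 7440 to 12400 in the groups other than A10-FMT, and that of the stem cell genes was 407 to 466 in A10-FMT set 1. The part of the balance between crypt and villus tissue in the members' difference was not tested.

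**Figure D3:**
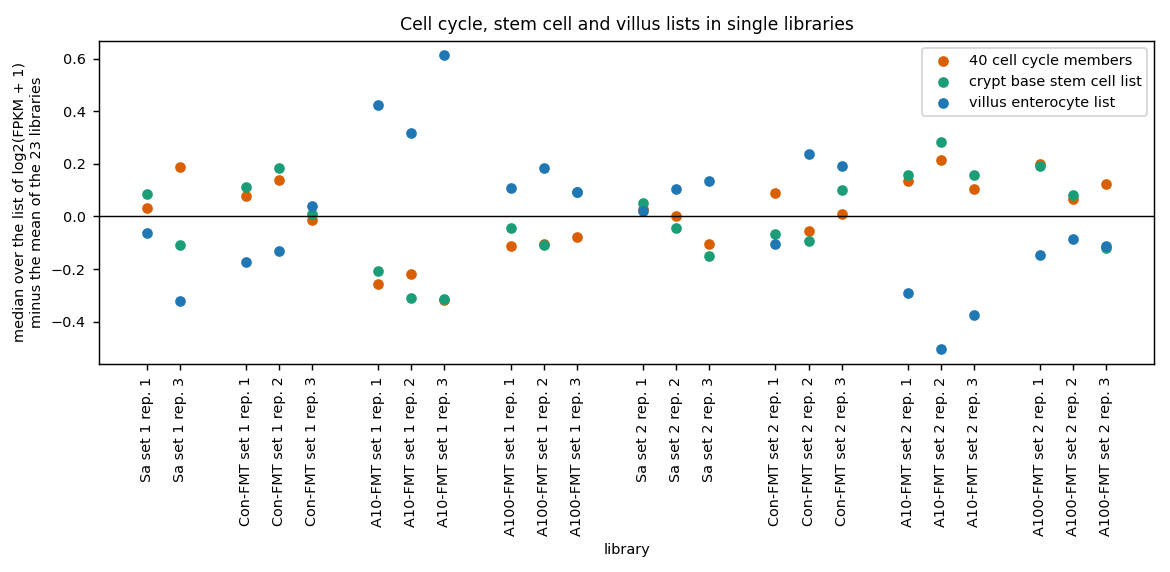
Median deviation of the 40 members, the crypt base stem cell genes and the villus enterocyte genes in each library, as log2(FPKM + 1) minus the gene's mean over the 23 libraries (vertical axis); libraries are ordered by group. In A10-FMT set 1 the members lay between -0.319 and -0.219 and the villus genes between 0.319 and 0.612, and in A10-FMT set 2 the members lay between 0.106 and 0.214 and the villus genes between -0.505 and -0.291.

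In set 2 none of the 40 members was called between Con-FMT and A10-FMT by limma, where 0.379% of all genes were, and the difference had the opposite sign. All 40 were higher in A10-FMT, by a median of 0.15 against 0.05 for all genes, 8 of them at an unadjusted p under 0.05, against 6.52% of all genes, and 18 without overlap between the groups, against 17.0%. Foxm1 was at 13.24, 14.06 and 13.33 FPKM in A10-FMT set 2 and at 12.33, 12.2 and 11.78 FPKM in Con-FMT set 2. Mcm3 was at 28.33, 30.5 and 28.0 FPKM against 27.43, 24.09 and 25.39 FPKM, and Pcna at 181.25, 170.3 and 163.15 FPKM against 163.12, 146.13 and 167.8 FPKM. Of these, Foxm1 and Mcm3 did not overlap.

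The difference between the sets was itself tested. The step from Con-FMT to A10-FMT was higher in set 2 than in set 1 for all 40 members and passed the test for 27 (limma, interaction term), with none in the other direction, where 14.1% of all genes passed in that direction. The median of this difference was 0.46 for the members and 0.13 for all genes. It was 0.57 ± 0.09 for Foxm1 (adjusted p = 0.000493), 0.59 ± 0.10 for Mcm3 (adjusted p = 0.000878), 0.49 ± 0.10 for Tpx2 (adjusted p = 0.00206) and 0.61 ± 0.18 for Top2a (adjusted p = 0.0211). For Mki67 it was 0.47 ± 0.25 and did not pass (adjusted p = 0.191). Mki67 passed with the column that the description names for replicate 3 of Sa set 1, and not after adjustment for GC content and length. All 10 replication genes and all 4 genes of deoxynucleotide supply were among the 27. With the scaling by a trimmed mean 13 members passed, without replicate 3 of Sa set 1 37, and without Con-FMT replicate 2 of set 2 17.

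**Figure D4:**
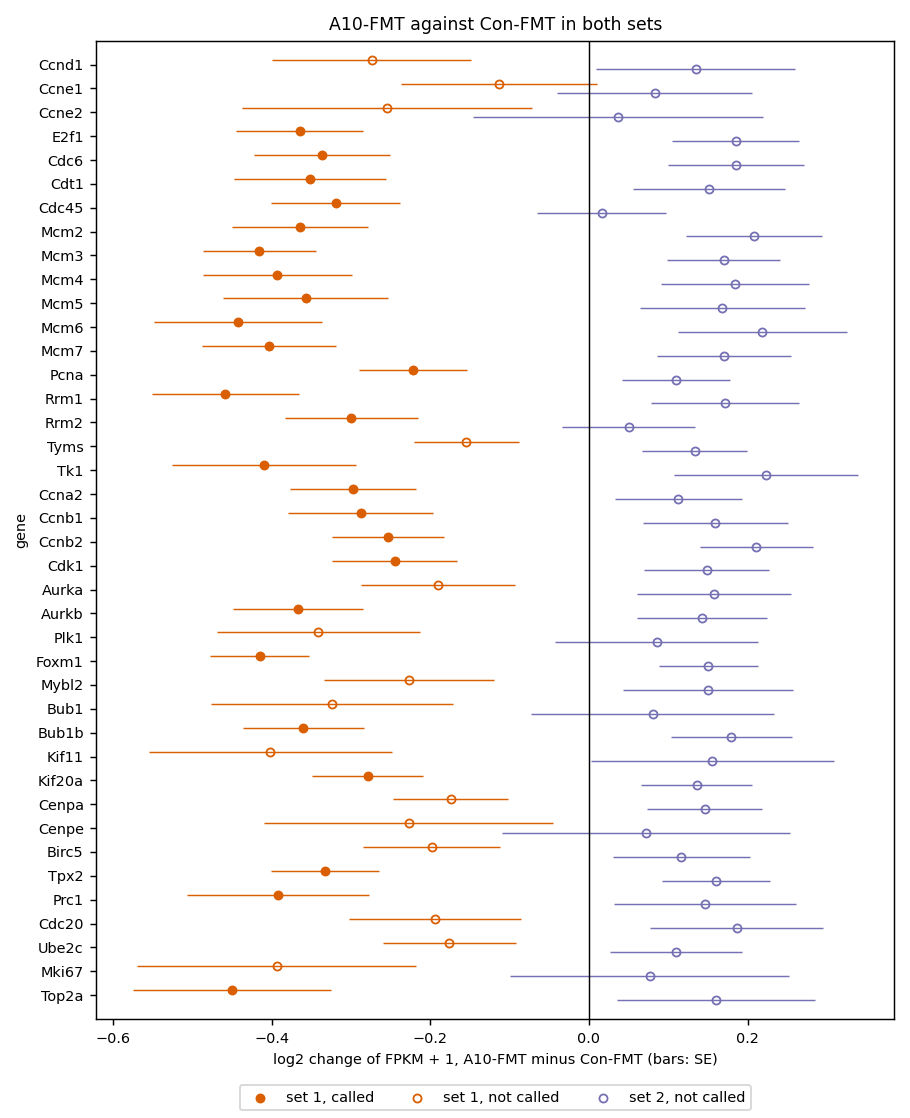
Change from Con-FMT to A10-FMT of each member on the log2(FPKM + 1) scale (horizontal axis, with bars of ± 1 SE from limma), ordered by role, in set 1 and set 2. Filled points passed an adjusted p of 0.05. The 40 points of set 1 lie below 0, 25 of them filled, and the 40 points of set 2 lie above 0, none filled.

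The A10-FMT mice of the 2 sets differed directly as well. Between set 1 and set 2, 34 members were higher in set 2 by limma and none was lower, where 21.8% of all genes were higher. All 40 had the higher mean in set 2, with a median difference of 0.44 against 0.12 for all genes, and 39, all but Ccne1, did not overlap, against 40.5% of all genes. Kif20a was at 13.67, 13.7 and 12.31 FPKM in set 1 and at 19.13, 18.79 and 17.93 FPKM in set 2 (0.46 ± 0.07, adjusted p = 0.000183). Tpx2 rose from 15.9 ± 0.633 to 22.3 ± 0.652 FPKM (SD, n = 3 each; adjusted p = 0.000145) and Foxm1 from 9.76 ± 0.54 to 13.5 ± 0.45 FPKM (adjusted p = 0.000122). Prc1 had the largest difference, 0.58 ± 0.12, from 19.1 to 29.0 FPKM. The 2 markers both passed here: Mki67 averaged 27.9 and 40.6 FPKM (0.52 ± 0.18, adjusted p = 0.032) and Top2a 48.6 and 71.7 FPKM (0.55 ± 0.13, adjusted p = 0.00329). The members that did not pass were Ccnd1, Ccne1, Ccne2, Aurka, Bub1 and Cenpe.

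Ube2c and Tk1, which act at opposite ends of the cycle, both rose from set 1 to set 2. Ube2c was at 175.67, 175.04 and 157.24 FPKM in A10-FMT set 2, against 119.16 to 131.0 FPKM in set 1 (0.43 ± 0.08, adjusted p = 0.00123). Tk1 was at 40.41, 39.54 and 38.67 FPKM in set 2, against 24.93 to 27.78 FPKM in set 1 (0.58 ± 0.12, adjusted p = 0.00157). Of the 122 other cell cycle genes 95 rose and 2 fell, the inhibitors Cdkn1c (4.0 to 1.97 FPKM, adjusted p = 0.000374) and Cdkn2b (adjusted p = 0.0161). Incenp and E2f8 had the smallest p, with differences of 0.56 (adjusted p = 7.75e-06) and 0.64 (adjusted p = 2.8e-05). While the members rose, 12 of 15 villus genes fell (8.62% of all genes fell), Anpep from 2120 to 1150 FPKM (adjusted p = 7.75e-06). Of 8 stem cell genes 6 rose (21.8% of all genes rose). The part of these lists was not tested. With the scaling by a trimmed mean 24 members were called and the median of all genes was 0.01.

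The Con-FMT mice of the 2 sets did not show this difference. None of the 40 members was called between them by limma (0.00882% of all genes were), 1 had an unadjusted p under 0.05, lower in set 2 (3.22% of all genes), and the smallest adjusted p was 0.773, for Cdc6. Mcm3 averaged 28.1 ± 1.76 FPKM in set 1 and 25.6 ± 1.68 FPKM in set 2, and Ube2c 142 ± 3.79 and 157 ± 11.1 FPKM (SD, n = 3 each). The median difference of the members was -0.05.

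A100-FMT, from donors on the higher dose, lay between Con-FMT and A10-FMT in set 1. None of the members was called against Con-FMT by limma, where 0.406% of all genes were. Of the 40, 35 were lower than in Con-FMT, with a median of -0.15 against 0.00 for all genes, and 11 had an unadjusted p under 0.05, all of them lower, against 5.12% of all genes. Without overlap, 20 members lay below Con-FMT, against 10.2% of all genes, and 2, Tyms and Cenpe, above it, against 11.5%. The smallest adjusted p were 0.186 for Mcm2 and Cdc6. Mcm2 was at 21.98, 20.41 and 22.43 FPKM in A100-FMT and at 27.77, 27.75 and 24.18 FPKM in Con-FMT (-0.28). Mcm3 was at 24.75, 23.07 and 23.9 FPKM, between the A10-FMT and the Con-FMT values and overlapping with neither.

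Against A10-FMT of set 1, 3 members were higher in A100-FMT by limma and none was lower, where 3.95% of all genes were higher. These were Foxm1, at 12.51, 11.5 and 12.88 FPKM (0.31 ± 0.06, adjusted p = 0.0119), Tyms, at 16.0, 15.87 and 17.66 FPKM against 13.31, 13.94 and 13.58 FPKM (0.26 ± 0.07, adjusted p = 0.0305), and Cenpa, the centromeric histone, at 39.0, 42.78 and 36.95 FPKM against 32.2, 35.31 and 31.43 FPKM (0.26 ± 0.07, adjusted p = 0.0471). None of the 3 genes overlapped between the groups, and 27 members lay above A10-FMT without overlap, against 28.1% of all genes. The calls were few and depended on the fit: 16 members had an unadjusted p under 0.05, against 17.4% of all genes, none was called with the scaling by a trimmed mean or with the 2 groups fitted alone, and 15 were called without replicate 3 of Sa set 1. Beside them 5 of 6 Paneth cell genes fell in A100-FMT of set 1 against A10-FMT, where 1.71% of all genes fell, and 5 of 6 against Con-FMT, where 0.212% fell. Their summed FPKM was 7240 to 10800 in A100-FMT and 15300 to 20200 in Con-FMT of set 1, and its part was not tested.

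In set 2 no member was called between A100-FMT and Con-FMT or A10-FMT by limma. Against Con-FMT (0.0% of all genes called) the members were higher by a median of 0.13 and 8 had an unadjusted p under 0.05, all higher, against 7.25% of all genes. The smallest adjusted p was 0.264, for E2f1, which was at 5.64, 5.58 and 5.95 FPKM against 4.62, 4.22 and 5.13 FPKM. Between A10-FMT and A100-FMT (0.00882% of all genes called) the median difference was -0.02 and no member had an unadjusted p under 0.05. The change from Con-FMT to A100-FMT did not differ between the sets for any member by the adjusted p (0.0% of all genes), and 17 had an unadjusted p under 0.05, all higher in set 2, against 7.79% of all genes. The change from A10-FMT to A100-FMT differed for 1 member, Foxm1 (-0.36 ± 0.09, adjusted p = 0.0339), where 1.96% of all genes were lower, and 9 members were lower at an unadjusted p under 0.05, against 12.6% of all genes. It passed for none with the scaling by a trimmed mean and for 7 members without replicate 3 of Sa set 1. Between the A100-FMT mice of set 1 and set 2 no member was called (0.0% of all genes), although 26 had an unadjusted p under 0.05, all higher in set 2, against 8.92% of all genes, and 30 did not overlap, against 17.7%. The smallest adjusted p there was 0.144, for Cdk1, and 14 members were called, all higher in set 2, without replicate 3 of Sa set 1.

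Comparisons with the saline mice ask what an FMT itself did. In set 2 no member was called in any of them by limma. For Con-FMT (0.0353% of all genes called) the median difference from Sa was 0.03 and 1 member had an unadjusted p under 0.05 (3.15% of all genes). For A10-FMT (0.423%) all 40 members were higher than in Sa, by a median of 0.19 against 0.03 for all genes, 21 had an unadjusted p under 0.05, the 10 replication genes among them, against 8.32% of all genes, and 25 did not overlap, against 19.2%. Mcm3 came nearest to a call, at 28.33, 30.5 and 28.0 FPKM in A10-FMT and 25.62, 23.55 and 22.24 FPKM in Sa (0.27, adjusted p = 0.0931). For A100-FMT (0.0353%) the median was 0.15, 15 had an unadjusted p under 0.05, against 9.4% of all genes, and 20 did not overlap, against 18.4%. Mcm3 was again nearest, at 31.3, 26.37 and 28.82 FPKM (0.27, adjusted p = 0.139). Without replicate 3 of Sa set 1, which enters these fits through the shared spread alone, 5 members were called higher in A10-FMT and 7 in A100-FMT. In each of these 3 comparisons the control is the same 3 mice.

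In set 1 the saline group was 2 mice. They were close in some members, such as Kif20a (15.88 FPKM in replicate 1 and 16.23 FPKM in replicate 3), and far apart in others. Replicate 3 was higher than replicate 1 for 24 members and lower for 16. Its differences were large in Cenpe, a kinetochore kinesin (2.07 against 6.22 FPKM), Mki67 (15.0 against 34.63 FPKM), Tk1 (55.79 against 35.71 FPKM) and Mcm5. Across the 40 members the deviation of this library from the median of the other 22, on the log2(FPKM + 1) scale, went with the GC content of the transcript (Spearman's rho 0.877, n = 40 genes of the same library) and with its length (rho -0.539). Members under the median GC content of 49.0% had a median deviation of -0.286, and those at or above it a median of 0.427. The part of GC content in the values was not tested.

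**Figure D5:**
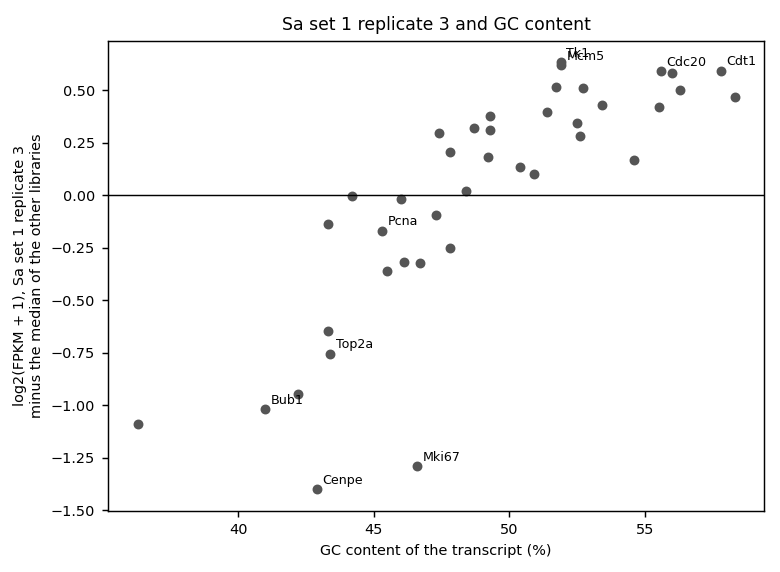
Value of log2(FPKM + 1) in replicate 3 of Sa set 1 minus the median of the other 22 libraries (vertical axis) against the GC content of the transcript in percent (horizontal axis), 1 point per member. Members of lower GC content such as Cenpe and Mki67 lie below 0 and those of higher GC content such as Tk1 and Mcm5 above, with a Spearman's rho of 0.877.

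With both saline mice, 24 members fell in A10-FMT of set 1 by limma (18.4% of all genes) and none rose. E2f1 was at 5.27 and 7.21 FPKM in Sa and at 3.47 to 3.77 FPKM in A10-FMT (-0.63 ± 0.09, adjusted p = 0.000525), and Mcm3 at 28.67 and 31.71 FPKM against 20.26 to 21.42 FPKM (-0.51, adjusted p = 0.00062). Foxm1 followed, with 12.52 and 14.39 FPKM in Sa (-0.42, adjusted p = 0.000833). None of the 3 genes overlapped. Without replicate 3, with 1 saline mouse left, the median difference was -0.31 for the members and -0.06 for all genes. With the compared groups fitted alone no member was called in any of the 3 comparisons with Sa within set 1.

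In A100-FMT 16 members fell (13.1% of all genes) and 4 rose (22.0%) against Sa of set 1. The smallest p belonged to Mcm2, at 25.3 and 34.4 FPKM in Sa and 20.41 to 22.43 FPKM in A100-FMT (-0.43, adjusted p = 0.0076), Mcm5 (-0.48, adjusted p = 0.0103) and Mcm3 (-0.32, adjusted p = 0.0105). Con-FMT against Sa of set 1 gave 7 members that rose (17.7% of all genes) and 3 that fell (9.17%). Among them were Mki67 (0.67 ± 0.20, adjusted p = 0.0283), Cenpa (-0.27, adjusted p = 0.0283) and Top2a (0.47, adjusted p = 0.0288). Without replicate 3 neither comparison had a called member, and Mki67, at 34.63 FPKM in the remaining mouse, lay close to the 35.64 to 39.27 FPKM of Con-FMT. Between the saline mice of set 1 and set 2, 7 members were higher in set 2 (24.2% of all genes) and 10 lower (13.9%), with the smallest p for Cdc45, Mcm3 and Cdt1 (-0.43, -0.33 and -0.44), and without replicate 3 none was called.

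The change from Sa to A10-FMT was higher in set 2 than in set 1 for 27 members by the interaction term (17.8% of all genes), with none in the other direction. It differed by 0.79 for Mcm3 (adjusted p = 0.00024), 0.79 for Mcm2 (adjusted p = 0.000607) and 0.74 for E2f1 (adjusted p = 0.000619), and 30 members passed without replicate 3 of Sa set 1. For the change from Sa to A100-FMT 19 members were higher (13.3%) and 1 lower (13.5%) in set 2, led by Mcm3 (0.59, adjusted p = 0.0062), Mcm2 (0.70, adjusted p = 0.00644) and Cdt1 (0.73, adjusted p = 0.00732). Without that library 4 members were called: Cdt1, Mcm2, Mcm3 and Pcna, of which Pcna was not called with it (adjusted p = 0.0606). For the change from Sa to Con-FMT none was called (0.00882%), and at an unadjusted p under 0.05 6 were higher in set 2 (12.1% of all genes) and 6 lower (22.2%). These tests and those against Con-FMT share the A10-FMT and A100-FMT mice.

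Within groups the members were correlated with each other to differing degrees. After the group means were taken out, the median Pearson's r over the 780 pairs of members was 0.336 across the 23 libraries (-0.812 to 0.95). It was 0.473 across the 21 libraries without Sa set 1 (-0.55 to 0.935). These points share a library and its composition, so the values are descriptions. The median over pairs of all genes tested was not computed, so a reference for the members is missing. Without Sa set 1, the median was 0.579 among the replication genes, 0.583 among the mitotic cyclins, kinases and factors, 0.433 among the spindle genes, 0.361 among the deoxynucleotide genes and 0.0934 among the 4 genes of S phase entry, with 0.61 for Cdc20 and Ube2c. The pattern of Mki67 was most like those of Cbx5 (0.945), Cnot6l (0.902), Stag1 (0.896), Smc4 (0.893) and Mms22l (0.869) over all genes tested in the 21 libraries. Among the members it was most like Tpx2 (0.759), Kif11 (0.708) and Ccne2 (0.673), and least like Cdt1 (-0.352). Mki67 and Top2a had an r of 0.877 with Sa set 1 and 0.555 without it.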

How the data were processed

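The authors isolated small intestine RNA with TRIzol and sequenced it on an Illumina HiSeq. Their methods name RPKM and DEGseq, whereas the deposited values are FPKM with 2 decimals, per the file headers, in a table of 24 columns. The submitters' processing notes name mm10, and the aligner is not given in the sources used here. For 1 saline mouse of set 1 the title (replicate 3) and the description point to different columns. The title's column was used, and the other served only as an alternative.

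Values were analysed as log2(FPKM + 1), so changes of low genes are understated. The 11337 genes that averaged 1 FPKM or more were tested and 7878 were not. A model with 1 mean per group over all 23 libraries was fitted with limma 3.58.1 in R 4.3.3, using lmFit, contrasts and eBayes with its trend option. Adjustment was by Benjamini-Hochberg over all genes tested, with calls at 0.05. Interaction terms are the effect in set 2 minus that in set 1. No count model was fitted, since no read numbers were used and depth is unknown. Summaries used scipy 1.17.1, pandas 2.3.3, numpy 2.4.6 and matplotlib 3.10.9 in Python 3.11.15.

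The alternatives tried were adding 0.1 before the logarithm, testing every gene not at 0 throughout, scaling by a trimmed mean (0.3 trimmed), fitting the compared groups alone, a block for the replicate number, the column the description names, adjusting for transcript GC content and length, and leaving out each library. Counts of members under an alternative are given without the share of all genes called in that fit. They describe how the counts move and not a result about the members. All members could be named. Values of every library are given for the markers, the most abundant member of each role group and the 3 members of smallest p in a comparison with calls. Of the other cell cycle lists the genes of highest mean or smallest p could be named, and of the tissue lists the 2 of highest mean. The members and lists were chosen with earlier results of these data known. Promoters are from RefSeq, GRCm38.p6.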

Additional observations from a re-analysis of the deposited data

Results flagged for a closer look

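These results were singled out because an effect differed between set 1 and set 2 by the interaction term of limma. The step from Con-FMT to A10-FMT was higher in set 2 for 27 members (14.1% of all genes), Top2a among them with a log2 difference of 0.61 (adjusted p = 0.0211). With the scaling by a trimmed mean it was so for 13 members, without Top2a. The change from Sa to A10-FMT was higher in set 2 for 27 members (17.8% of all genes). That from Sa to A100-FMT differed for 20, of which 19 were higher (13.3% of all genes) and 1 lower (13.5%), and for 4 without replicate 3 of Sa set 1. The change from A10-FMT to A100-FMT was lower in set 2 for 1 member, Foxm1, near the 1.96% of all genes, and for 0 with the scaling by a trimmed mean. What the sets stand for is not given in the labels, so the treatment effect's dependence on the set cannot be tied to any one feature of the sets.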

How the results depend on the processing

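Counts of members called moved by less than 1.5 times with a pseudocount of 0.1 in all 22 comparisons. With the replicate block they were 11, 25, 22, 24 and 2 in set 1 for Sa against Con-FMT, A10-FMT and A100-FMT, Con-FMT against A10-FMT and A10-FMT against A100-FMT, 17 and 35 for Sa and A10-FMT between the sets, and 27, 21, 26 and 1 for the differences between the sets, and no count moved by over 1.5 times. Of 33 pairs of mice with the same replicate number, 10 had a correlation of deviations over 0.1 (-0.352 to 0.319). Pairs with different numbers were not compared, so whether the numbers pair the mice was not tested.

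Scaling by a trimmed mean gave 11 calls for Con-FMT against A10-FMT in set 1, 0 for A10-FMT against A100-FMT in set 1, and 13 and 0 for their differences between the sets. With the groups fitted alone 0 members were called in set 1 for Sa against each FMT group and for A10-FMT against A100-FMT, 0 for Sa between the sets and for the Sa to A100-FMT difference between the sets, and 7 for the A10-FMT to A100-FMT difference. With all genes tested, Sa against Con-FMT in set 1 gave 1 call and Sa between the sets 11. Adjusted for GC content and length these gave 2 and 10, Sa against A10-FMT in set 2 gave 2, A100-FMT between the sets 1, and the Con-FMT to A100-FMT and A10-FMT to A100-FMT differences between the sets 1 and 3. The causes were not tested.

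With the description's column, set 1 gave 0 calls for Sa against Con-FMT, 6 for Sa against A100-FMT, 1 for Con-FMT against A100-FMT and 14 for A10-FMT against A100-FMT. Set 2 gave 6 for Sa against A10-FMT, 5 for Sa against A100-FMT and 1 for Con-FMT against A100-FMT. Between the sets Sa gave 4 and A100-FMT 12, and the Con-FMT to A100-FMT and A10-FMT to A100-FMT differences 4 and 7. This column turned the log2 difference of Sa against Con-FMT in set 1 to -0.0071 for Mcm4, -0.0882 for Kif11, -0.0603 for Cenpe, -0.0470 for Mki67 and -0.0115 for Top2a, and that against A100-FMT to -0.0479 for Bub1 (-0.0374 to 0.9697 on leaving out a single library, the lowest without Sa set 1 replicate 3) and -0.0446 for Mki67. For Sa between the sets it turned Bub1 to -0.0008, Kif11 to -0.0474, Prc1 to -0.0566 and Top2a to -0.0871.

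Leaving out each library in turn gave, in set 1, 0 to 30 calls for Sa against Con-FMT, 18 to 31 against A10-FMT and 0 to 32 against A100-FMT, 11 to 34 for Con-FMT against A10-FMT, 0 to 1 against A100-FMT and 0 to 15 for A10-FMT against A100-FMT. In set 2 it gave 0 to 5 for Sa against A10-FMT, 0 to 7 against A100-FMT and 0 to 1 for Con-FMT against A100-FMT. Between the sets the ranges were 0 to 30 for Sa, 26 to 38 for A10-FMT and 0 to 14 for A100-FMT. For the differences between the sets they were 0 to 28 for Sa to Con-FMT, 25 to 32 for Sa to A10-FMT, 4 to 30 for Sa to A100-FMT, 17 to 37 for Con-FMT to A10-FMT, 0 to 5 for Con-FMT to A100-FMT and 0 to 7 for A10-FMT to A100-FMT. Without either Sa mouse of set 1 the lone saline mouse is assumed to vary like the other groups. With unknown depth, counting error cannot be given, and 3 mice per group limit what could be called.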
